A study of Caenorhabditis elegans with 6 samples.

Results

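The moulting cycle genes described here are 10 genes of the nematode Caenorhabditis elegans, out of 18865 genes measured. They are the nuclear receptor genes nhr-23 and nhr-25, the endocytic receptor gene lrp-1, the apical matrix genes noah-1 and noah-2, and the moulting genes mlt-7, mlt-8, mlt-9, mlt-10 and mlt-11. They were picked by symbol for their known roles, with earlier results of these data in view but with no measured value in the rule, and all 10 were found on the array, on 16 of its 22490 probes. The gene nhr-23 had 4 probes, noah-1 had 3, mlt-9 had 2 and the other 7 genes had 1 each.

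A nematode grows by replacing its cuticle at the end of each larval stage. Before each moult the epidermis transcribes a timed series of genes: nuclear hormone receptors that drive the cycle, receptors that take up sterols, components of a temporary apical matrix, collagens of the next cuticle, and enzymes and inhibitors that join the new layers and release the old one. Transcripts of many of these genes rise and fall once per larval stage, so that their level in a pooled culture depends on where its animals are in the cycle as well as on how strongly each animal transcribes them.

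Worms treated with chlorpyrifos (CPF), an organophosphorus insecticide that inhibits acetylcholinesterase, were compared with control worms on 6 arrays of 2 colours. CPF and control worms were both of the wild type strain N2, hatched from eggs of bleached cultures, and kept for 72 h at 16 °C on NGM agar with Escherichia coli OP50, the agar of the CPF worms holding CPF in acetone and that of the control worms acetone alone. Every array carried 1 CPF and 1 control sample. CPF was in Cy5 and the control in Cy3 for 3 arrays, named CPF Cy5 replicates 1 to 3, and the reverse held for the other 3, named CPF Cy3 replicates 1 to 3. The dose is 0.5 mg/ml and the stage L3 to L4 per the labels, while the study's own text has 0.5 mg per litre. Each sample pooled worms of several dishes. It is not stated in the sources used here whether control extracts were shared between arrays, and p-values therefore cover only the spread among the 6 arrays. Whole worms were extracted, so that fewer cells of a type and less RNA per cell cannot be told apart.

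The share of probes above background ranged over the samples from 34.98% to 61.6%, counting spots with a mean spot brightness more than 2 SD above the local background. CPF Cy3 replicates 2 and 3 stood apart from the other 4 arrays. Over the 7072 genes above background on all arrays of a condition, log2 ratios of the other 4 arrays correlated with each other with r between 0.43 and 0.72. With these 2 they correlated with r between -0.17 and 0.20, while the 2 correlated with each other with r = 0.41. The arrays were scanned on 2 days. Day 1 held CPF Cy5 replicates 1 and 2 and CPF Cy3 replicate 1, and day 2 the other 3.

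None of the 10 moulting genes was significantly regulated in CPF treated worms. In the limma fit over all genes 0 of 10 had an adjusted p below 0.05, against a background of 1.19% (225 of 18865 genes, 61 higher and 164 lower). The balance of directions turned with the processing, to 13 higher and 6 lower both without background correction and with the authors' table, and 3 and 0 with plain background subtraction. Without CPF Cy5 replicate 2 it was 7 higher and 0 lower, and without CPF Cy3 replicate 3 it was 19 and 5. The log2 ratio of CPF over control, fitted over the 6 arrays, lay between -0.10 for mlt-10 and 0.38 for nhr-25. Of the 10 genes, 9 had a ratio above 0 (8 to 10 under the alternative fits), beside 9774 of all 18865 genes. That background holds as well for the counts above 0 in the lists below. The median ratio of the 10 was 0.21 against 0.01 over all genes. At an unadjusted p below 0.05, 4 genes were higher in CPF treated worms (nhr-25, noah-1, mlt-9 and mlt-11) and 0 lower. The background share of genes higher at that threshold was 3.89%. Under the alternative fits 0 to 6 of the 10 genes passed it in either direction. The count was 0 with plain background subtraction and 6 without background correction. The ratio was above 0 on at least 5 of 6 arrays for 6 of the 10 genes, beside 14.6% of all genes. At probe level 0 of 16 probes were called, against 0.934% of all probes. A rank product of the 6 arrays called 0 of the 10 genes as well, and 534 of all genes. With CPF Cy3 replicates 2 and 3 left out 0 of 10 genes were called and the median of the 10 was 0.16. The 10 genes were measured on the same 6 arrays and are not independent of each other.

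**Figure D1:**
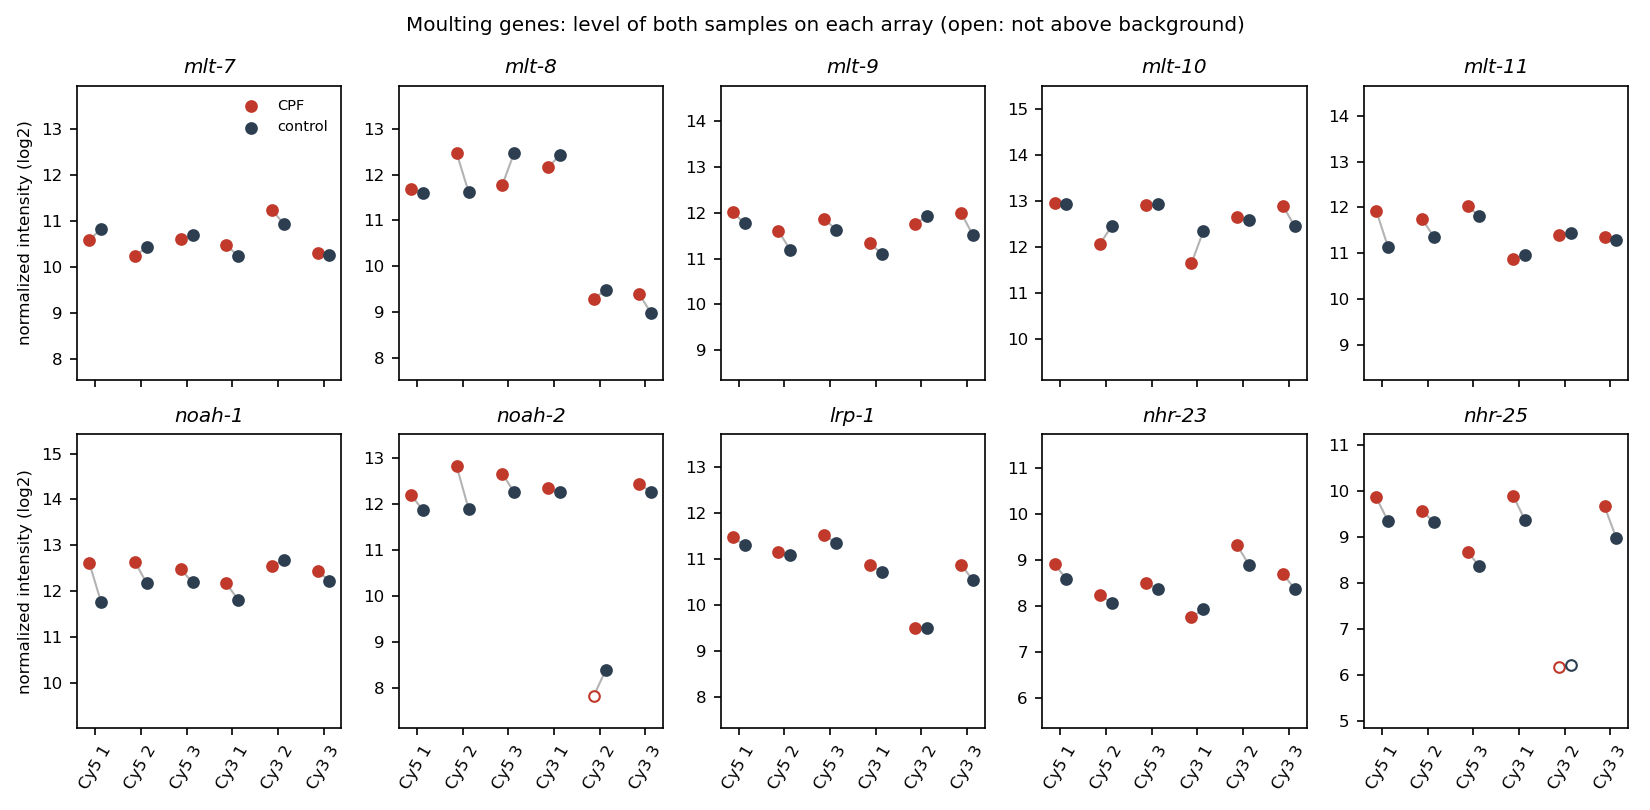
Normalized log2 brightness of the 10 moulting genes in CPF samples (left in each pair) and control samples (right) of the 6 arrays, with a line joining the 2 samples of an array and an open symbol for a spot not above background. The panels have different offsets but the same height in log2 units. In every panel the CPF and control levels overlap, and for noah-2 and nhr-25 both samples of CPF Cy3 replicate 2 lie far below the others.

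The nuclear receptor gene nhr-23 (C01H6.5) is the orthologue of the insect ecdysone response gene DHR3 and is needed for every larval moult. On its brightest probe, which was above background in all 12 samples, its normalized log2 level was 7.76 at the lowest, 8.60 at the median and 9.32 at the highest in CPF samples, and 7.93, 8.38 and 8.89 in control samples. The control range lay within the CPF range. On the CPF Cy5 arrays the log2 ratio was 0.32, 0.16 and 0.13, and on the CPF Cy3 arrays it was -0.17, 0.43 and 0.32. CPF Cy3 replicate 1 was the only array with a ratio below 0. The fitted ratio was 0.20 ± 0.10 (SE, n = 6 arrays, adjusted p = 0.561), with a 95% interval of -0.02 to 0.42. Without CPF Cy3 replicates 2 and 3 it was 0.02, and within scan day 1 it was 0.04. A probe annotated to the second isoform (C01H6.5b), above background in 5 CPF and 6 control samples, had a ratio of 0.07 ± 0.08, and the other 2 probes of nhr-23 were not above background on any array.

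The second nuclear receptor gene, nhr-25 (F11C1.6), is the orthologue of insect Ftz-F1 and acts with nhr-23 in the larval epidermis. It had the highest fitted ratio of the 10 genes. Its log2 level was 6.18 at the lowest, 9.62 at the median and 9.89 at the highest in CPF samples, and 6.21, 9.15 and 9.36 in control samples. Both lowest values came from CPF Cy3 replicate 2, where neither sample was above background. Within each array the CPF sample was the brighter one on 5 of 6: the ratios were 0.52, 0.25 and 0.32 on the CPF Cy5 arrays and 0.53, -0.03 and 0.69 on the CPF Cy3 arrays. Fitted over all arrays the ratio was 0.38 ± 0.11 (adjusted p = 0.200), with a 95% interval of 0.13 to 0.63. Without CPF Cy3 replicate 2 it was 0.49 with an adjusted p of 0.067, the lowest that any of the 10 genes reached under any alternative tried.

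The gene lrp-1 (F29D11.1) encodes the epidermal relative of megalin, a large receptor of the low-density lipoprotein receptor family through which the epidermis is thought to take up sterols. Its log2 level was 9.51, 11.02 and 11.54 (lowest, median, highest) in CPF samples, and 9.51, 10.91 and 11.35 in control samples. Its ratios were close together across arrays, at 0.18, 0.05 and 0.19 with CPF in Cy5 and 0.15, -0.01 and 0.34 with CPF in Cy3. The spread of these ratios around the fit was at the 7.9 percentile of genes above background. The fitted ratio was 0.15 ± 0.08 (adjusted p = 0.584), and its 95% interval ran from -0.03 to 0.33. It was above background in all 12 samples.

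The products of noah-1 and noah-2 are transmembrane proteins of the apical matrix with zona pellucida domains, related to NompA of Drosophila, and hold the epidermis to the cuticle during the moult. For noah-1 (C34G6.6) the log2 level of the only probe above background was 12.17, 12.52 and 12.64 in CPF samples, and 11.76, 12.18 and 12.68 in control samples. CPF levels thus filled the upper part of the control range. The ratios were 0.86, 0.47 and 0.29 on the CPF Cy5 arrays and 0.36, -0.13 and 0.20 on the CPF Cy3 arrays, with only CPF Cy3 replicate 2 below 0. Its fit gave 0.34 ± 0.10, with a 95% interval of 0.10 to 0.58, and did not pass the test over all genes (adjusted p = 0.242). Within scan day 1 it was 0.51 (adjusted p = 0.082), and within day 2 it was 0.16. The other 2 probes of noah-1, both annotated to isoform b, were not above background in any sample.

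For noah-2 (F52B11.3) the log2 level was 7.82, 12.39 and 12.82 in CPF samples, and 8.38, 12.08 and 12.27 in control samples. As for nhr-25, the lowest value of each group was that of CPF Cy3 replicate 2, on which the CPF spot was not above background. Its ratios were 0.32, 0.92 and 0.41 on the CPF Cy5 arrays and 0.09, -0.56 and 0.17 on the CPF Cy3 arrays. The array with the dim spot also held the only ratio below 0. Over all arrays the fit gave 0.23 ± 0.13 (adjusted p = 0.626), and 0.34 (adjusted p = 0.308) without that array. It was lower, at 0.13, without CPF Cy5 replicate 2, at 0.12 with print-tip loess and at 0.11 within scan day 2.

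**Figure D2:**
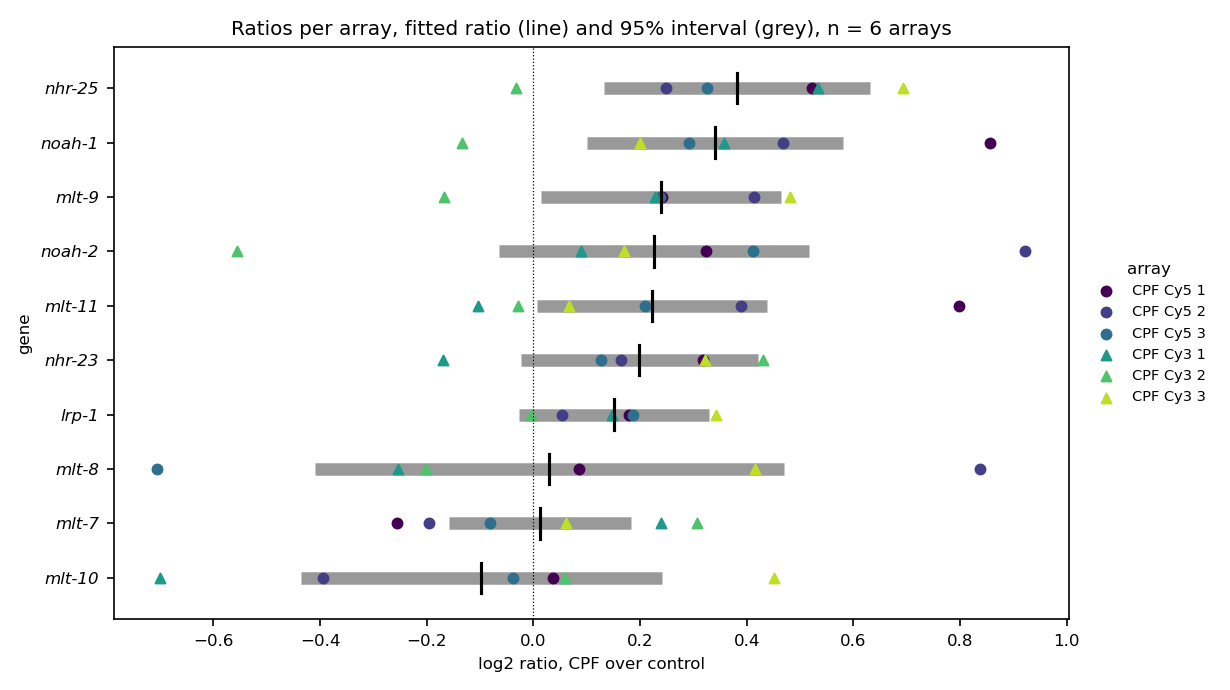
Log2 ratio of CPF over control for each of the 10 moulting genes on each array (points), with the fitted ratio (black line) and its 95% interval (grey bar). The genes are ordered by fitted ratio, and the intervals of all 10 lie between -0.44 and 0.63.

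The gene mlt-7 (ZK430.8) encodes a secreted haem peroxidase that cross-links cuticle proteins. It was the gene with the least difference between CPF treated and control worms. Its log2 level was 10.23, 10.52 and 11.24 in CPF samples, and 10.23, 10.56 and 10.93 in control samples. The ratio followed the dye: it was -0.26, -0.20 and -0.08 where CPF was in Cy5 and 0.24, 0.31 and 0.06 where CPF was in Cy3. The model holds a term for such an effect, and with it the fitted ratio was 0.01 ± 0.07 (adjusted p = 0.982), with a 95% interval of -0.16 to 0.18.

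The gene mlt-11 (W01F3.3) encodes a large secreted protein with Kunitz domains, of the kind that inhibit serine proteases. Its log2 level was 10.87, 11.58 and 12.02 in CPF samples, and 10.97, 11.33 and 11.81 in control samples. The ratios were 0.80, 0.39 and 0.21 with CPF in Cy5 and -0.10, -0.03 and 0.07 with CPF in Cy3, so that the 3 highest ratios were those of the 3 CPF Cy5 arrays. The fitted ratio, which averages both dye orientations, was 0.22 ± 0.09 (adjusted p = 0.463). Leaving out CPF Cy5 replicate 1, which had the highest ratio, gave 0.14, and the median instead of the mean brightness of the spots gave 0.42.

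The gene mlt-9 (F09B12.1) is needed to shed the old cuticle. Its log2 level was 11.33, 11.81 and 12.01 in CPF samples, and 11.11, 11.57 and 11.93 in control samples. The ratio was 0.24, 0.41 and 0.24 on the CPF Cy5 arrays and 0.23, -0.17 and 0.48 on the CPF Cy3 arrays. Again CPF Cy3 replicate 2 was the only array below 0. The fitted ratio was 0.24 ± 0.10 (adjusted p = 0.443), with a 95% interval of 0.01 to 0.46. Its second probe, annotated to isoform a, was not above background in any sample.

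The ratios with the widest spread around the fit were those of mlt-8 and mlt-10, which lie near each other in the genome with 4 protein-coding genes between them. The gene mlt-8 (W08F4.6) is needed for completing the moult. Its log2 level was 9.29, 11.73 and 12.46 in CPF samples, and 8.98, 11.61 and 12.48 in control samples. Both samples of CPF Cy3 replicates 2 and 3 were low, at 9.29 and 9.39 for CPF and at 9.49 and 8.98 for the control, whereas the other 8 values were at 11.60 or above. The ratio had no common sign, with 0.09, 0.84 and -0.71 on the CPF Cy5 arrays and -0.25, -0.20 and 0.41 on the CPF Cy3 arrays. The spread of these ratios around the fit was at the 92.3 percentile of genes above background. Its fitted ratio was 0.03 ± 0.19 (adjusted p = 0.983), and its 95% interval, -0.41 to 0.47, was the widest of the 10.

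The gene mlt-10 (C09E8.3) encodes a nematode protein with proline-rich repeats, and its promoter, which is active in a pulse at each moult, is widely used as a reporter of the cycle. It was bright in all samples, with log2 levels of 11.64, 12.77 and 12.96 in CPF samples and 12.34, 12.52 and 12.94 in control samples. CPF Cy3 replicate 1 had the lowest CPF level and CPF Cy5 replicate 2 the next lowest. The ratios were 0.04, -0.39 and -0.04 on the CPF Cy5 arrays and -0.70, 0.06 and 0.45 on the CPF Cy3 arrays. Over the 6 arrays this came to -0.10 ± 0.15 (adjusted p = 0.904). Within scan day 1 the fitted ratio was -0.44 and within scan day 2 it was 0.11. Neither passed the test (adjusted p = 0.122 and 0.978).

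Array by array, the 10 genes did not keep 1 order. The median ratio of the 10 was 0.28, 0.32 and 0.20 on the CPF Cy5 arrays and 0.12, -0.03 and 0.33 on the CPF Cy3 arrays. The number of genes above 0 was 9, 8 and 7 with CPF in Cy5, and 6, 3 and 10 with CPF in Cy3. CPF Cy3 replicate 2 had the fewest, and was also the array with the lowest share of probes above background, 34.98% for its CPF sample and 41.5% for its control. CPF Cy3 replicate 3 was the only array with all 10 above 0. The gene with the highest ratio was noah-1, noah-2 or nhr-25 on 5 of the 6 arrays, and nhr-23 on CPF Cy3 replicate 2. At the other end, mlt-8 had the lowest ratio on CPF Cy5 replicate 3 and mlt-10 the lowest on CPF Cy3 replicate 1, on which nhr-25 stood at 0.53.

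**Figure D3:**
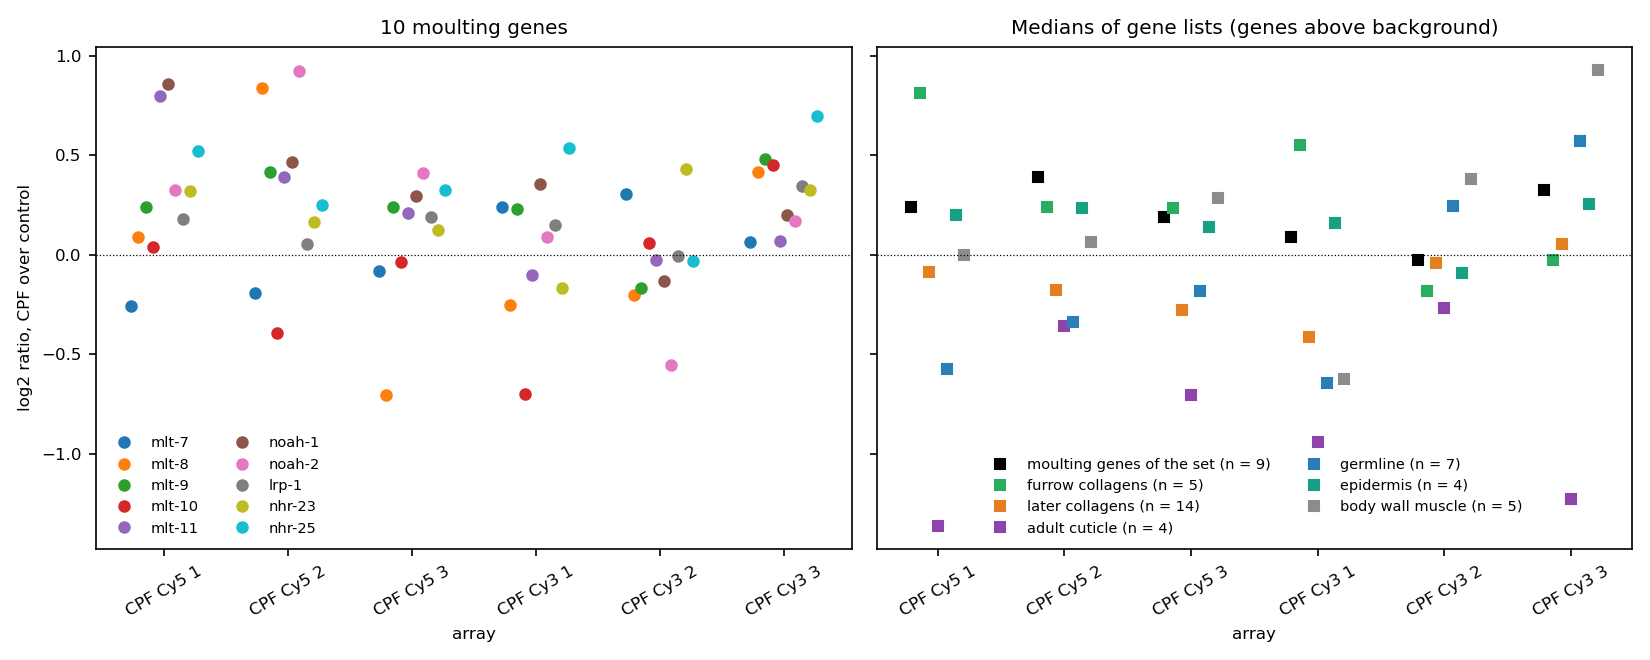
Log2 ratio of CPF over control on each of the 6 arrays for the 10 moulting genes (left) and as medians over gene lists, counting genes above background on all arrays of a condition (right). On CPF Cy3 replicates 2 and 3 the germline list is above 0 (0.24 and 0.57) and on the other 4 arrays it is below 0, while the adult cuticle list is below 0 on all 6.

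Markers of stage and of other tissues also differed between CPF treated and control worms, and between the arrays. The label gives larval worms, and in the adult cuticle list, of which 5 of 7 genes were measured and which shares bli-1, bli-2 and rol-6 with the collagens below, 3 genes fell in CPF treated worms and 0 rose. The collagen gene col-19, which is switched on at the transition to the adult, had ratios of -1.78, -1.85 and -2.12 on the CPF Cy5 arrays and -1.94, -0.20 and -1.59 on the CPF Cy3 arrays, and a fitted ratio of -1.58 ± 0.21 (adjusted p = 0.0196). As it was above background in 1 of 6 CPF samples and in 6 of 6 control samples, the size of this ratio depends on the background step. It was -1.11 without background correction and -2.15 with plain subtraction. The collagen genes col-63 (-1.20 ± 0.20, adjusted p = 0.0399) and bli-2 (-0.94 ± 0.15, adjusted p = 0.0395) fell as well, though col-63 was not above background on all arrays of either condition. Each of these 3 calls was lost when any of CPF Cy5 replicates 1, 2 or 3 or CPF Cy3 replicate 3 was left out, with adjusted p of up to 0.109 for col-19, 0.161 for col-63 and 0.156 for bli-2, and that of bli-2 also without CPF Cy3 replicate 2. With 1 array left out the fitted ratio stayed between -1.84 and -1.41 for col-19. For col-63 it stayed between -1.42 and -1.06, and for bli-2 between -1.07 and -0.81. None of the 3 was called without background correction, with plain subtraction or with the authors' table (adjusted p between 0.100 and 0.159). With median foreground col-63 and bli-2 were not called, and with spots of scanner code 3 alone col-19 (adjusted p = 0.298) and bli-2 were not. Within scan day 1 bli-2 was not called, and within day 2 col-63 was not.

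Of 6 sperm genes measured msp-38 and msp-45, of the major sperm proteins, fell (-1.79 ± 0.30 and -1.87 ± 0.31). Of 8 intestinal genes the yolk protein genes vit-2 and vit-6 fell (-2.10 ± 0.31 and -2.34 ± 0.38). The gene vit-6 was not above background on all arrays of either condition. The fitted ratio of all 6 sperm and all 8 intestinal genes was below 0. Only 2 of the 6 sperm genes were above background on all arrays of a condition, and the highest sperm ratio was -0.005. Exceptions under the alternatives included 1 sperm gene above 0 without background correction, with the authors' table and without CPF Cy5 replicate 1. Within scan day 2 the count was 2 of 6 sperm genes, and without CPF Cy3 replicate 1 it was 1 sperm and 1 intestinal gene. The 4 calls of msp-38, msp-45, vit-2 and vit-6 were each lost without any of CPF Cy5 replicates 1, 2 or 3 or CPF Cy3 replicate 3. Those of vit-6, msp-38 and msp-45 were also lost without CPF Cy3 replicate 2. With 1 array left out the fitted ratio stayed between -2.40 and -1.76 for vit-2, and between -2.64 and -1.95 for vit-6. For msp-38 it stayed between -2.01 and -1.48, and for msp-45 between -2.12 and -1.54. None of the 4 was called without background correction, with plain subtraction or with the authors' table (adjusted p between 0.100 and 0.185). With median foreground vit-6 and msp-45 were not called, and msp-38 and msp-45 were not with print-tip loess or with spots of scanner code 3 alone. Within scan day 1 vit-2 was not called (adjusted p = 0.052), and the mean over its probes gave msp-45 -0.95. Of 8 germline genes 0 were called and the median was -0.14. Their median over genes above background was -0.57, -0.34 and -0.18 on the CPF Cy5 arrays and -0.65, 0.24 and 0.57 on the CPF Cy3 arrays. The median of the adult cuticle genes above background on the same arrays was -1.36, -0.36 and -0.71 and -0.94, -0.27 and -1.23. Of 7 seam cell, 7 body wall muscle, 6 pharynx and 6 neuron genes measured 0 were called, with medians of 0.08, 0.17, 0.16 and 0.08. Of 21 alternatives, 3 changed the sign of the pharynx median (-0.16 within scan day 1) and 2 that of body wall muscle (-0.17 without CPF Cy3 replicates 2 and 3). The neuron median changed sign under 2, the germline median under 1 and the seam cell median under 0. Over the genes above background the body wall muscle median was 0.00, 0.07 and 0.28 on the CPF Cy5 arrays and -0.62, 0.38 and 0.93 on the CPF Cy3 arrays. That of the pharynx was -0.56, -0.15 and 0.21 on the CPF Cy5 arrays and -0.05, 0.94 and 0.48 on the CPF Cy3 arrays. The part of these differences in the ratios of the moulting genes was not tested.

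Markers of the epidermis, the tissue that transcribes the moulting genes, were measured for 10 genes. None of them was called, 9 had a ratio above 0, and their median was 0.10. The list is not separate from those below: it shares dpy-7 with the furrow collagens, che-14 with the endocytosis genes, and elt-1 and elt-3 with the regulators. The transcription factor gene lin-26 had a ratio of 0.13 ± 0.09 and the junction gene ajm-1 one of 0.09 ± 0.12, while elt-1, vab-10 and bro-1 were not above background in any sample. The median of the 10 epidermis genes was 0.03, 0.19 and 0.08 on the CPF Cy5 arrays and 0.30, 0.04 and 0.12 on the CPF Cy3 arrays, above 0 on all 6. Over the 4 of them above background it was -0.09 on CPF Cy3 replicate 2.

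The other genes of the pathway were taken in lists by role. Among 18 regulators of the moulting cycle measured, 0 were called and the median ratio was 0.07. Among those well measured, that is, above background on all arrays of a condition, the highest were the nuclear receptor gene nhr-91 (0.20 ± 0.08) and the zinc finger gene bed-3 (0.18 ± 0.09). The lowest were nhr-8 (-0.12 ± 0.09), a nuclear receptor gene of sterol and drug responses, and the heterochronic gene lin-28 (-0.06 ± 0.21).

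Among 18 genes of endocytosis and sterol uptake at the moult, 0 were called, 17 had a ratio above 0 and the median was 0.15. The list is wider than the partners of lrp-1, and holds patched-related genes as well. The highest well measured gene was nekl-3 (0.45 ± 0.11, adjusted p = 0.118), a kinase gene that controls endocytosis in the moulting epidermis, with a ratio above 0 on all 6 arrays, followed by the patched-related gene ptr-4 (0.30 ± 0.12). The adaptor gene dab-1, whose product binds such receptors, had 0.03 ± 0.12, and the small GTPase gene rab-35 had 0.05 ± 0.11.

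Among 19 genes for proteases, inhibitors and peroxidases 0 were called, with a median of 0.02. The peroxidase gene skpo-2 had 0.32 ± 0.12 (adjusted p = 0.401) and was above 0 on all 6 arrays. The astacin protease gene nas-37, whose product digests the old cuticle, had 0.16 ± 0.10. The lowest were the cathepsin L gene cpl-1 (-0.24 ± 0.13) and the protease inhibitor gene swm-1 (-0.29 ± 0.14).

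Of 31 other apical matrix and hedgehog-related genes 1 fell and 0 rose, with a median of 0.09. The gene that fell was the warthog gene wrt-4, one of the hedgehog-related genes of the epidermis (-0.80 ± 0.12, adjusted p = 0.0314). Its ratio was below 0 on all 6 arrays, at -0.77, -0.90 and -0.79 with CPF in Cy5 and -1.33, -0.53 and -0.46 with CPF in Cy3. With 1 array left out the fitted ratio stayed between -0.87 and -0.66. The call was lost without CPF Cy5 replicate 1, 2 or 3 or CPF Cy3 replicate 3 (adjusted p up to 0.151), without background correction and with the authors' table (0.121 each), with plain subtraction (0.134) and within scan day 2 (0.122). In the other direction stood qua-1, a hedgehog-related gene that is itself needed for the moult, with 0.42 ± 0.08 (adjusted p = 0.064). Its ratio was above 0 on all 6 arrays, from 0.69 on CPF Cy5 replicate 1 to 0.03 on CPF Cy3 replicate 2. It was called with print-tip loess (adjusted p = 0.045), within scan day 1 (ratio 0.55) and without CPF Cy3 replicates 2 and 3 together (ratio 0.54). It was not called within scan day 2 (ratio 0.33) or with any 1 array left out (adjusted p from 0.066 to 0.301). The lipocalin gene lpr-3 of the temporary matrix had 0.35 ± 0.21. For idpa-3 the sign differed between arrays, with -0.82, -0.74 and -0.27 on the CPF Cy5 arrays and -1.75, 1.26 and 1.48 on the CPF Cy3 arrays.

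**Figure D4:**
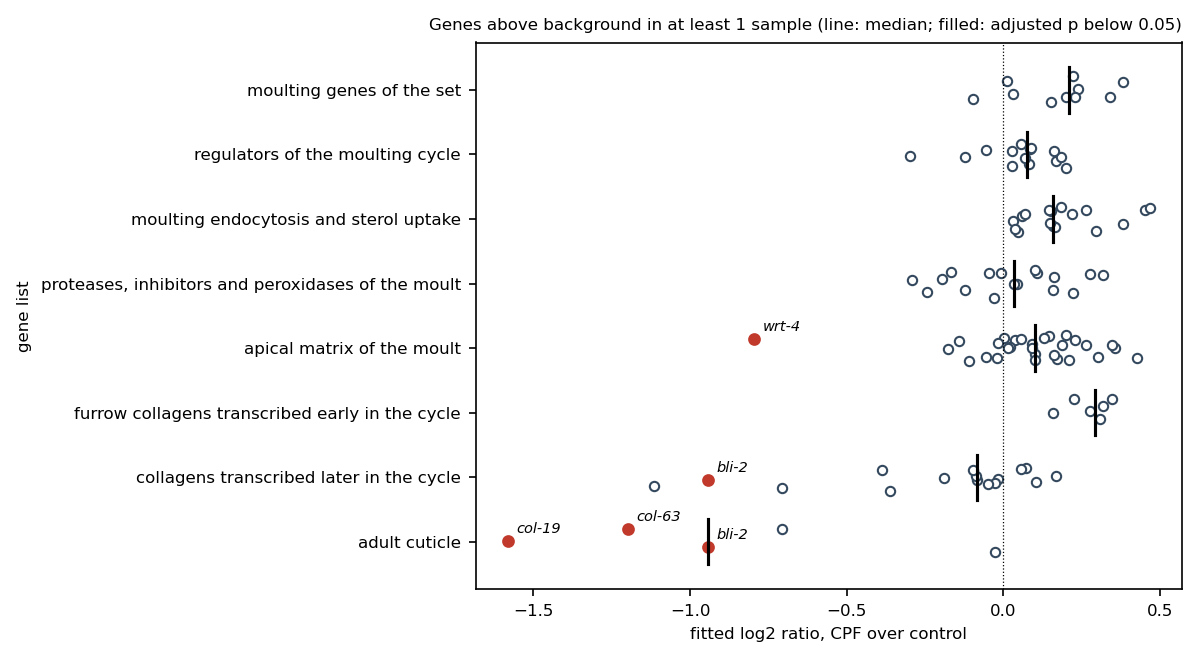
Fitted log2 ratio of CPF over control for genes above background in at least 1 sample, by list; each point is a gene, the vertical line is the median of the points, and filled points had an adjusted p below 0.05. The 10 moulting genes of the set hold no filled point, and the genes that fell are wrt-4, bli-2, col-19 and col-63.

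Cuticle collagens are transcribed in waves within each larval stage. All 6 furrow collagen genes of the early wave had a fitted ratio above 0, none was called, and their median was 0.29. Without CPF Cy5 replicate 1 the median was 0.18, and within scan day 2 it was 0.02, with 3 of 6 genes above 0. The highest were dpy-8 (0.35 ± 0.11) and dpy-9 (0.32 ± 0.18), and the lowest well measured ones dpy-10 (0.28 ± 0.08, adjusted p = 0.223) and dpy-7 (0.22 ± 0.14). The median over those above background was 0.81, 0.24 and 0.23 on the CPF Cy5 arrays and 0.55, -0.18 and -0.03 on the CPF Cy3 arrays.

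Among 16 collagen genes transcribed later, bli-2 fell, under the limits given above, and 0 rose, and the median was -0.09. Without CPF Cy3 replicate 3 the median was -0.18. The lowest ratio was that of bli-6 (-1.11 ± 0.23, adjusted p = 0.081). This gene was called with median centring (adjusted p = 0.033), the filter on dim spots (0.042) and the replicate block (0.045). It was also called without CPF Cy3 replicate 1 (0.032) or 2 (0.048). Within scan day 1 (ratio -1.56), within scan day 2 (-1.05) and without CPF Cy3 replicates 2 and 3 together (-1.66) it was called as well. It was not called in the other alternative fits, among them those without any of the other arrays (adjusted p up to 0.315) or without background correction (0.215). The highest ratios were those of sqt-1 (0.17 ± 0.10) and sqt-2 (0.10 ± 0.12). On CPF Cy3 replicate 2 sqt-1 stood at -0.29, apart from the other arrays. Per array the median of all 16 was -0.09, -0.18 and -0.28 on the CPF Cy5 arrays and -0.38, -0.08 and 0.05 on the CPF Cy3 arrays. Within the list dpy-13 had a wider spread than mlt-10, with ratios of -0.11, -0.31 and -0.65 with CPF in Cy5 and -1.13, 0.61 and 1.09 with CPF in Cy3. The difference between the early and the later collagens was not tested.

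**Figure D5:**
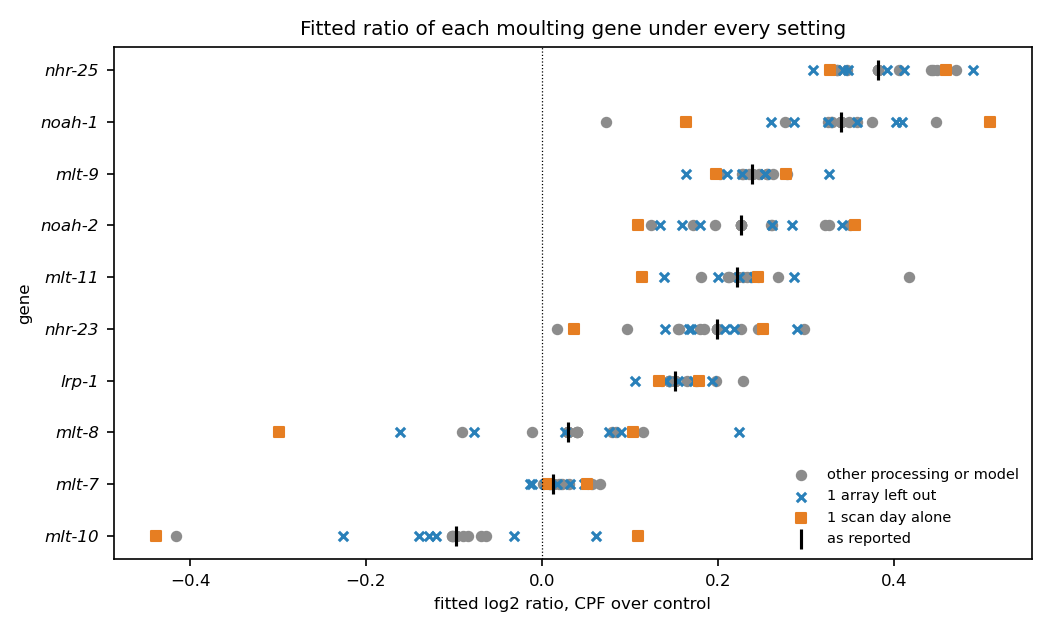
Fitted log2 ratio of each moulting gene in the fit reported here (black line) and under the alternatives tried (crosses, 1 array left out; squares, 1 scan day alone; circles, other processing or model). The sign was the same under every alternative for 7 of the 10 genes, and mlt-7, mlt-8 and mlt-10 lay on both sides of 0.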

How the data were processed

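Each array compared RNA of 1 CPF and 1 control sample, labelled with Cy5 and Cy3, on long-oligonucleotide arrays read with a ScanArray Express scanner. For every spot the deposited intensity values gave mean and median brightness, and those of the surrounding background, on a linear scale before normalization, with the percent of saturated pixels and a scanner code of unstated meaning. The authors also deposited a table of log2 ratios, made per the study's methods with loess and Aquantile in limma. Its columns equalled CPF over control from a loess fit without background correction to within 0.0148, so that scale, centring and direction were known. The medians of its columns for the CPF Cy5 arrays were -0.00107, -0.000791 and -0.000933, and those for the CPF Cy3 arrays -0.00213, 0.0021 and 0.00608. Columns normalized by the scanner software were left out.

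Of 23232 spots 742 were control or empty. Sequence names were matched to a gene table of WBcel235, used for names and gene neighbours only (21382 probes by locus tag, 31 by gene number, 1077 by the name in the file). Background was corrected with normexp (offset 50), ratios were normalized with global loess (control spots at weight 0) and Aquantile, and limma 3.58.1 in R 4.3.3 was fitted to all probes with treatment and dye terms (residual df 4). A gene was represented by its brightest probe on average. Tests were two-sided, adjusted after Benjamini and Hochberg over all genes or probes, and called below 0.05. SEs are moderated. The rank product used an own implementation with 100 permutations (percentage of false positives below 0.05). A probe never above background was given no fold, and 0 of the 16 probes were saturated (at least 25% of pixels). The number of arrays limits the precision. Fits were tested on simulated data.

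The genes and lists were chosen with earlier results of these data known. Beside the 10 genes, those named are the called genes of each list and the 2 highest and 2 lowest of each pathway list that were above background on all arrays of a condition. Marker genes, and the collagen dpy-13, were named after their values were seen. Alternatives were no background correction, plain subtraction, median foreground, median centring, print-tip loess, the authors' table, filters on dim spots and scanner codes, the mean over probes, no dye term, blocks and subsets by scan day, a replicate block, each array left out, and the rank product. Leaving out CPF Cy3 replicates 2 and 3 together was chosen after seeing the data.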

Additional observations from a re-analysis of the deposited data

Results flagged for a closer look

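Of 54 sets of 6 values examined, 7 held a sample far from the other 5, which chance gives in about 1 of 20 sets. All 7 lay on CPF Cy3 replicate 2. For noah-2 the level was 7.82 in the CPF sample (others 12.20 to 12.82) and 8.38 in the control sample (others 11.87 to 12.27). For nhr-25 it was 6.18 in the CPF sample (others 8.68 to 9.89) and 6.21 in the control sample (others 8.36 to 9.36), and for lrp-1 it was 9.51 in the CPF sample (others 10.88 to 11.54). In contrast, mlt-7 was highest there in the CPF sample, at 11.24 (others 10.23 to 10.60). The ratio of the collagen gene sqt-1 was -0.29 on that array, and 0.21 to 0.32 on the others.

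The ratio of mlt-7 had opposite signs in the 2 dye orientations on every array, with a mean of -0.18 where CPF was in Cy5 and 0.20 where CPF was in Cy3. Its dye term did not pass the limma test over all genes (adjusted p = 0.862).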

How the results depend on the processing

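None of the 10 genes was called under the 22 alternatives, of which the filter on dim spots tested 9 of them. None of their probes was called either. That filter tested 10 of the 16 probes and the restriction to scanner code 3 tested 11, and the mean over probes gave no value per probe. Of 209 fitted ratios under alternatives 9 changed sign, all of mlt-7, mlt-8 or mlt-10, none of which was called. For mlt-8 the ratio was -0.011 with median foreground, -0.299 within scan day 2 and -0.091 without CPF Cy3 replicates 2 and 3. For mlt-10 it was 0.109 within scan day 2. Leaving out 1 array at a time gave -0.014 to 0.048 for mlt-7, -0.162 to 0.224 for mlt-8 and -0.226 to 0.062 for mlt-10. The gene that the filter removed was nhr-25. The mean over probes gave noah-1 0.07, with 2 of its 3 probes below background. The median of the 10 genes ranged from 0.12 to 0.25.

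The number of all genes called was 225 here, 19 without background correction and with the authors' table, 3 with plain subtraction, 145 with median foreground, 105 with scanner code 3 only, 349 with a block for the scan day, 861 on day 1 alone, 139 on day 2 alone, 619 without CPF Cy3 replicates 2 and 3 and 534 by rank product. Leaving out 1 array gave 7 to 313. The replicate number as a block gave 295 (71 higher, 224 lower) and 0 of the 10 genes. Same-numbered arrays of the 2 orientations correlated at 0.22, 0.12 and 0.08 in their deviations, and differently numbered ones at -0.20 to 0.10. These values did not settle whether the numbers pair the samples, and the fit reported here took no pairing. List medians kept their sign under 21 alternatives, though not their size, for the regulators, endocytosis genes, apical matrix and both collagen lists, and for the proteases changed it under 3.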
